A study of Mus musculus with 4 samples.

Results

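The genes described here are the Wnt ligands, their Frizzled (Fzd) receptors and 2 groups of secreted Wnt inhibitors, the secreted Frizzled-related proteins (Sfrp) and the Dickkopf proteins (Dkk). They were taken by gene symbol from the mRNA table, and 37 of its 21878 genes were members: 19 Wnt, 10 Fzd, 4 Sfrp and 4 Dkk genes. All RNA came from C3H10T1/2, a mouse mesenchymal cell line of embryonic fibroblast origin. The study compared 2 untreated samples, replicates 1 and 2, with 2 samples given 5-AZA, replicates 101 and 102. The drug 5-AZA, 5-azacytidine, is a nucleoside that hinders the copying of DNA methylation and is used to turn such cells towards muscle. The treated cells received 20 µmol/L 5-AZA for 72 h and then fresh growth medium for another 21 days. The labels do not give the time in culture of the untreated cells, so treatment and time in culture cannot be told apart. The samples were bulk cultures, in which fewer cells of a type and less RNA per cell cannot be told apart either. The study describes the replicates as biological repeats without saying whether they were started and treated as separate cultures, so p-values measure the spread between these samples.

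Wnt proteins are lipid-modified ligands that bind Frizzled receptors at the cell surface together with the co-receptors Lrp5 and Lrp6, which stabilises β-catenin and turns on genes through TCF/LEF factors. Other ligands act mainly without β-catenin, through planar polarity or calcium signals. Sfrp proteins resemble the ligand-binding domain of Frizzled and bind Wnt ligands outside the cell, and several Dickkopf proteins bind Lrp5 and Lrp6. In mesenchymal cells the pathway is known for its part in the choice between bone, cartilage, fat and muscle fates.

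Levels are FPKM, fragments scaled to transcript length and sequencing depth, summed over the transcripts of a gene. Differences are 5-AZA minus untreated on the scale log2(FPKM + 0.1), which understates the change of low genes. A gene was tested where its mean over the 4 samples was at least 0.1 FPKM, and called where limma's adjusted p was below 0.05 and the change was over 2-fold. Of all 13199 genes tested, 13.1% were called higher and 1.32% lower with 5-AZA. Among the members 21 were tested, 9 of which rose and none of which fell by this rule. At an unadjusted p below 0.05, 15 members were higher and 4 lower, where 3220 and 1464 of all 13199 genes tested were. The other 16 members were below the limit, and 8 of these were listed at 0 in every sample. Wnt6, Wnt16 and Fzd6 reached the limit through the 5-AZA samples alone, so the share of tested members that rose is no measure of how often Wnt genes changed. The median difference was 0.97 over the members tested and 0.05 over all genes tested. The median of the members includes Wnt6, Wnt16 and Fzd6, so it is a description only.

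The cells carried strong markers of mesenchymal cells in both groups, with 12 markers (the highest being S100a4, Vim and Col3a1) summing to 9078 and 9104 FPKM in the untreated samples and to 5995 and 6131 with 5-AZA. Of these 12 markers 1 rose and 0 fell by the rule above, and at an unadjusted p below 0.05 6 were higher and 4 lower. Most of the sum came from S100a4 (means 5014 and 2556 FPKM) and Vim (2337 and 1279), both lower with 5-AZA. Col3a1 was higher (681 and 1172), so the falling sum does not describe all of these markers. Markers of other cell types moved with the treatment. All 14 skeletal muscle markers tested, of 16 in the table, rose, and their sum went from 1.94 and 2.09 to 1169.9 and 1748 FPKM. Of 9 adipocyte markers tested 8 rose, with sums of 32.9 and 49.3 against 1177 and 1610.2 FPKM. Of 8 osteoblast markers 5 were tested and 4 rose, with sums of 146 to 151 against 426 to 477. Most of this was Spp1 (133 and 123 against 437 and 377 FPKM). Runx2 was lower by less than 2-fold (8.06 and 8.28 against 5.19 and 5.32 FPKM, limma adjusted p = 0.0111). Sp7 and Alpl were below the limit, and Ibsp was at 0 in all samples. Of 7 chondrocyte markers tested 4 fell and 1 rose, with sums of 111 to 123 against 23.3 to 35.8. Of 4 cardiac markers tested 3 rose, with sums of 2.84 to 3.16 against 32.0 to 49.7, while the cardiac genes Nppa, Nppb, Myl7, Tbx5 and Hand2 were at 0 in all samples. Endothelial markers summed to 0.501 to 0.758 against 3.57 to 4.12 (3 of 5 tested rose), epithelial to 0.497 to 0.573 against 4.85 to 6.51 (3 of 5), neural to 10.9 in both untreated samples against 16.9 to 23.3 (1 of 4) and immune to 2.13 to 3.20 against 3.27 to 5.20 (1 of 2). The immune gene that rose was Cd68 (1.16 and 1.47 against 2.27 and 3.69 FPKM). Csf1r and Itgam were higher in both treated samples but reached only 0.0639 and 0.0748 FPKM, the pan-immune marker Ptprc was at 0.0631 FPKM in 5-AZA replicate 101 and at 0 elsewhere, and Adgre1 and Cd3e were at 0 in all samples. Several muscle markers and each epithelial marker that rose reached the limit on low values through the 5-AZA samples alone. The same held for some cardiac, endothelial, adipocyte and osteoblast markers, so the counts of markers that rose are descriptions. The part of these markers in the results on Wnt genes was not tested.

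The ligands were scarce in untreated C3H10T1/2 cells, and Wnt5b was the most abundant of them in both groups. Of the 19 Wnt genes 7 were tested, Wnt5b, Wnt16, Wnt11 and Wnt6 rose with 5-AZA, and none fell at an adjusted or an unadjusted p below 0.05. Wnt16, a ligand known from bone, showed the largest change of the ligands on this scale, although with a pseudocount of 1 FPKM its difference (1.56) was smaller than that of Wnt5b (1.87). Its level was 0.0199 and 0.0192 FPKM in the untreated samples and 1.48 and 2.62 FPKM with 5-AZA. The untreated level was almost nil and both treated samples stood well above it. The difference was 4.12 with a standard error of 0.36 (adjusted p = 6.2e-05), and the group means were 0.0196 and 2.05 ± 0.811 FPKM (SD, n = 2). Values as low as those of untreated Wnt16 may rest on few fragments, whose number is not given. Among 137 single-transcript genes with both untreated values under 0.05 FPKM, 42.3% differed between those samples by a ratio of 1 or 2 (within 0.1 log2). This share was not compared with that of higher genes, and a ratio of 1 can also come from close replicates.

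Wnt5b, a ligand of the β-catenin-independent branch, measured 1.05 and 1.19 FPKM in the untreated samples and 5.77 and 7.85 FPKM in the 5-AZA samples. Its mean went from 1.12 ± 0.0988 to 6.81 ± 1.47 FPKM (SD, n = 2), a 6.08-fold change, and the log2 difference was 2.49 with a standard error of 0.21 (adjusted p = 5.69e-05). Without 5-AZA replicate 102 the difference was 2.27 and the adjusted p was 0.0539. Wnt11, a ligand of heart and muscle development that also works mainly without β-catenin, was at 0.147 and 0.178 FPKM in untreated cells. It reached 0.692 and 0.955 FPKM with 5-AZA, a log2 difference of 1.80 with a standard error of 0.32 (adjusted p = 0.00391). Without 5-AZA replicate 102 the adjusted p of Wnt11 was 0.059. Wnt6 was listed at 0 and at 0.0522 FPKM without treatment and at 0.301 and 0.207 FPKM with it. Its difference of 1.51 with a standard error of 0.42 passed the test (adjusted p = 0.0319), yet it failed when any single sample was left out. The adjusted p of Wnt6 was then 0.219 without untreated replicate 1, 0.0583 without untreated replicate 2, 0.168 without 5-AZA replicate 101 and 0.139 without 5-AZA replicate 102.

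The 3 other ligands tested missed the adjusted threshold with positive differences, which turned negative under quantile normalization. Wnt5a, the classical β-catenin-independent ligand, measured 0.168 and 0.295 FPKM untreated and 0.627 and 0.439 FPKM with 5-AZA, with a difference of 0.94 and a 95% interval of 0.13 to 1.76 (adjusted p = 0.0935). Wnt9a measured 0.117 and 0.169 against 0.3 and 0.424 FPKM (0.92, 95% interval 0.10 to 1.75, adjusted p = 0.102). Wnt10b, an inhibitor of fat cell formation, measured 0.151 and 0.0639 against 0.48 and 0.242 FPKM (1.14, 95% interval 0.17 to 2.10, adjusted p = 0.0889). In all of these the 4 samples did not overlap between groups, a pattern seen with 5-AZA above in 36.8% of all genes tested. By level, Wnt5b stood above Wnt5a, Wnt11, Wnt9a and Wnt10b in untreated cells, and the samples of these 4 overlapped from each to the next. With 5-AZA the order was Wnt5b, Wnt16, Wnt11, Wnt5a, Wnt9a, Wnt10b and Wnt6, in which the samples of Wnt9a, Wnt10b and Wnt6 overlapped from each to the next and those of Wnt5a overlapped those of Wnt10b.

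The remaining 12 ligands were below the limit. Wnt10a was listed at 0 in both untreated samples and at 0.186 and 0.196 FPKM with 5-AZA, close under the limit as a mean over the 4 samples. Wnt6 stood just inside it. Wnt7b reached 0.0861 FPKM, Wnt4 0.0394, Wnt2b 0.0362, Wnt1 0.025, Wnt3 0.0127 and Wnt2 0.00548 FPKM in their highest sample. Wnt3a, Wnt7a, Wnt8a, Wnt8b and Wnt9b were at 0 in all 4 samples, so classical β-catenin ligands such as Wnt1, Wnt3 and Wnt3a were at or near 0 in both groups. Wnt6 and Wnt10a lie next to each other on chromosome 1, and both were higher in each treated sample than in either untreated sample. Of the other neighbouring pairs, Wnt3a and Wnt9a as well as Wnt9b and Wnt3 on chromosome 11 and Wnt10b and Wnt1 on chromosome 15, only Wnt9a and Wnt10b were tested.

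**Figure D1:**
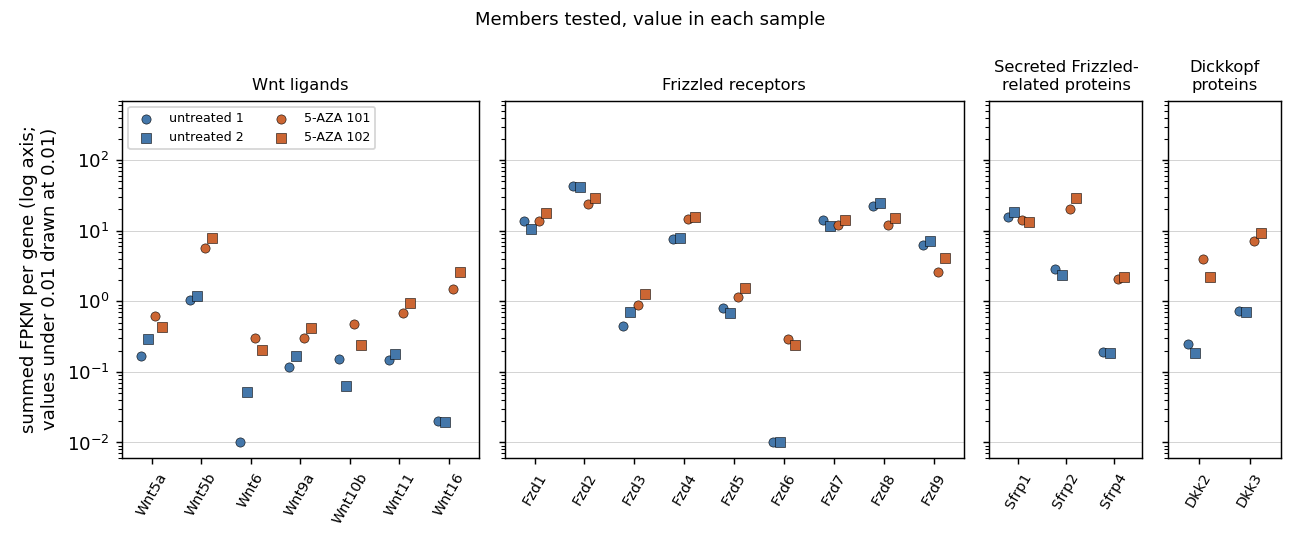
Level of each of the 21 members tested in each sample, in summed FPKM on a log axis, with a panel per family and values under 0.01 drawn at 0.01. Blue points are the untreated and orange points the 5-AZA samples, with a circle and a square for the replicates. The points of Wnt16, Fzd6, Sfrp2, Sfrp4, Dkk2 and Dkk3 lie far apart between groups, whereas those of Fzd7 overlap.

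Since 5-AZA acts on DNA methylation, which in mammals sits on CG dinucleotides (CpG), the promoters of members were read from the RefSeq table of build GRCm38.p6. It matched 25 of the 37 members with 28 promoters of 300 bases, 250 before and 50 after the start. The sequences of 4 members that rose are shown as examples of sparser and denser promoters among them. Each is the 250 bases before the start on the plus strand, 5′ to 3′, with every CG in capitals.
Wnt16, chr6:22287977-22288226: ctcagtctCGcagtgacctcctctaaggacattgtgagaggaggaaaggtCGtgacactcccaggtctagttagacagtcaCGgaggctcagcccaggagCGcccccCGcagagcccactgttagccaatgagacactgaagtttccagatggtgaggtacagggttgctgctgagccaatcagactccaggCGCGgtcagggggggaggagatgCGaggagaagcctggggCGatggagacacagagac
Dkk2, chr3:132085042-132085291: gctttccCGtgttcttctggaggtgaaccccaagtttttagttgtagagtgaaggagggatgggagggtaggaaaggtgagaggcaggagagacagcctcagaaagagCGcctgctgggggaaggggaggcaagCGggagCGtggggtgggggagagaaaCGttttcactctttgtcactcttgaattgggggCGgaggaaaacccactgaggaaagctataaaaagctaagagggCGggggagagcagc
Sfrp2, chr3:83766071-83766320: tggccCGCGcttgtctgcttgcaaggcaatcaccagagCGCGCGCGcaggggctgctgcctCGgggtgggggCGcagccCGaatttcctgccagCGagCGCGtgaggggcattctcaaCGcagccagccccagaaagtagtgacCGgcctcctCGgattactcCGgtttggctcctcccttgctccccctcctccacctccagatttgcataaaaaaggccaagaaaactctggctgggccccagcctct
Wnt6, chr1:74771642-74771891: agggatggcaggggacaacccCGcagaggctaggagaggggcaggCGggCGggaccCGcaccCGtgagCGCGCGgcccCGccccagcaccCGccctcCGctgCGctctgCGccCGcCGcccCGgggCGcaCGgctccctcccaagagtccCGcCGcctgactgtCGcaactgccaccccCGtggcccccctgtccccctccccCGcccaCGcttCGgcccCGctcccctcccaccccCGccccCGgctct

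These stretches hold 9 CpG for Wnt16, 7 for Dkk2, 16 for Sfrp2 and 28 for Wnt6. In the full windows of 300 bases Wnt16 had 10 CpG with a ratio of observed to expected CpG of 0.402, Dkk2 had 11 (0.499), Sfrp2 had 22 (0.682) and Wnt6 had 31 (0.744). Promoters of the members were denser in CpG than most, with a median of 26.5 CpG against 7 over all 32851 promoters of the table and ratios of 0.754 against 0.384. Among the members, the median was 22 CpG over 9 promoters of 6 genes that rose, 32 over 7 promoters of 7 genes tested and not called, and 28 over 12 promoters of genes below the limit. The densest of these was the promoter of Wnt9a with 58 CpG, and Fzd9 had 53. Promoters of genes that rose ranged from 4 to 47 CpG, and both ends were promoters of Wnt5b, which had another with 7 CpG. The letters CTTTGAA and CTTTGAT, the core bound by TCF/LEF factors, searched on both strands, occurred in 3 of the 28 promoters (10.7%), those of Dkk1, Wnt11 and Wnt5b, and in 8.65% of all promoters. A letter match is a description only. Methylation was not measured here.

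The receptors were the most abundant family, and their changes were small and in both directions. Of the 10 Fzd genes 9 were tested and Fzd6 alone was called. Fzd6 was listed at 0 in both untreated samples and at 0.291 and 0.241 FPKM with 5-AZA (adjusted p = 0.00904), so no fold is given. By adjusted p alone, which passed 18.6% of all genes as higher and 5.93% as lower, Fzd4 was higher and Fzd2, Fzd8 and Fzd9 were lower, each by less than 2-fold.

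Fzd2 was the highest receptor in each sample. It measured 43.3 and 42.1 FPKM in untreated cells and 24.2 and 28.7 FPKM after 5-AZA, a difference of -0.70 with a standard error of 0.11 (adjusted p = 0.00233). Fzd8 measured 22.3 and 24.8 FPKM against 11.9 and 14.9 FPKM, a difference of -0.81 with a standard error of 0.14 (adjusted p = 0.00283). Both values with 5-AZA were below both untreated values in each of these genes, as in 25.4% of all genes tested. Without 5-AZA replicate 101 the adjusted p was 0.0537 for Fzd2 and 0.0966 for Fzd8, and for Fzd8 it was 0.0713 without 5-AZA replicate 102. Fzd9 measured 6.28 and 7.08 FPKM against 2.62 and 4.12 FPKM. Its difference of -0.997 (standard error 0.22, adjusted p = 0.0114, 95% interval -1.50 to -0.49) lay just inside 2-fold, and without untreated replicate 1 it was -1.08. Fzd9 was called lower with a pseudocount of 0.01 FPKM (-1.02, adjusted p = 0.0199) and with centring on sample medians (-1.10, adjusted p = 0.00746). It was also called lower under quantile normalization (-1.18, adjusted p = 0.0108). With no limit on low values its adjusted p was 0.147, and without limma's trend option it was 0.0574. Without either 5-AZA sample the adjusted p of Fzd9 was 0.13 (replicate 101) or 0.0761 (replicate 102).

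Fzd4, the receptor for the non-Wnt ligand norrin, had the smallest adjusted p among the receptors. Its level was 7.58 and 7.96 FPKM in the untreated samples and 14.7 and 15.8 FPKM with 5-AZA, a difference of 0.97 with a standard error of 0.12 (adjusted p = 5.74e-04). Without untreated replicate 2 the difference was 1.00, just over 2-fold, and without 5-AZA replicate 101 or 102 the adjusted p was 0.0509 or 0.0626. The ratio of Fzd4 to Fzd9 was 1.21 and 1.13 in the untreated samples and 5.61 and 3.84 with 5-AZA. Since Fzd4 was above and Fzd9 below in both treated samples, this ratio could not overlap and is a description only.

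The other receptors tested missed the threshold. Fzd7 overlapped between the groups, at 14.1 and 11.6 FPKM untreated and 11.9 and 14.1 FPKM with 5-AZA, with a difference of 0.02 (95% interval -0.32 to 0.35, adjusted p = 0.946) whose sign changed with the scaling. Fzd1 measured 13.8 and 10.7 against 13.9 and 18.0 FPKM, a difference of 0.37 (95% interval -0.01 to 0.76, adjusted p = 0.151). Fzd3 measured 0.441 and 0.701 against 0.899 and 1.28 FPKM (0.84, adjusted p = 0.093) and Fzd5 0.803 and 0.687 against 1.16 and 1.52 FPKM (0.76, adjusted p = 0.0697), and both were negative under quantile normalization. Fzd10 was at 0 in all samples. By level, the untreated order was Fzd2, Fzd8, Fzd7, Fzd1, Fzd4, Fzd9, Fzd5, Fzd3 and Fzd6, in which the samples of Fzd7 and Fzd1 and those of Fzd5 and Fzd3 overlapped. With 5-AZA Fzd2 still led, but Fzd1, Fzd4, Fzd8 and Fzd7 formed a group in which each overlapped the next.

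**Figure D2:**
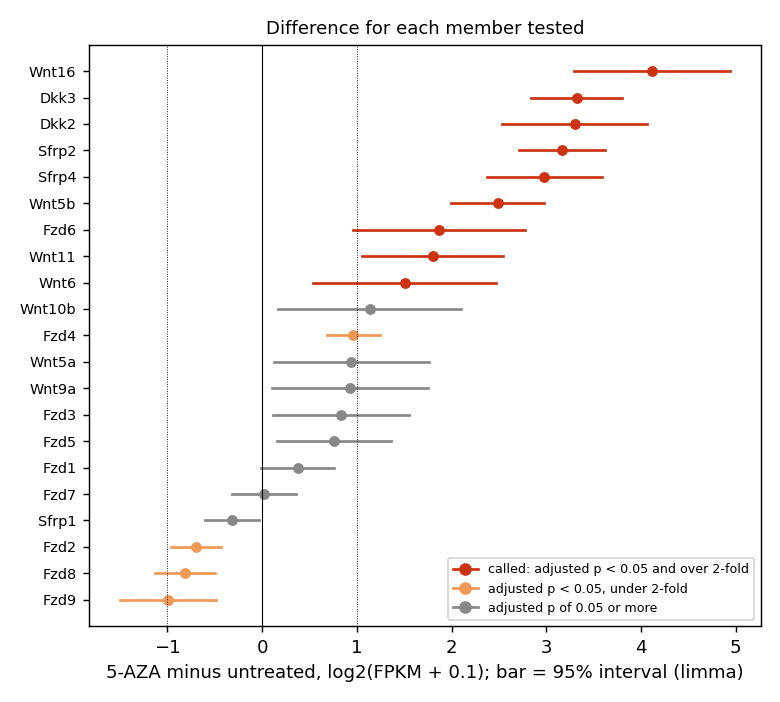
Difference between 5-AZA and untreated samples on the scale log2(FPKM + 0.1) for each of the 21 members tested, with the 95% interval from limma as a bar. Dotted lines mark a 2-fold change, red marks the 9 members called, orange those with an adjusted p below 0.05 and a smaller change, and grey the rest. The called members lie between 1.51 (Wnt6) and 4.12 (Wnt16), and Fzd9, Fzd8, Fzd2 and Sfrp1 lie below 0.

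Most of the secreted inhibitors tested rose with 5-AZA. Of the 8 Sfrp and Dkk genes 5 were tested, and Sfrp2, Sfrp4, Dkk2 and Dkk3 rose. None fell, and 1, Sfrp1, was lower at an unadjusted p below 0.05. Sfrp2 measured 2.90 and 2.37 FPKM in the untreated samples and 20.1 and 29.5 FPKM with 5-AZA. Its mean went from 2.64 ± 0.371 to 24.8 ± 6.61 FPKM (SD, n = 2), a 9.42-fold change, with a log2 difference of 3.17 and a standard error of 0.20 (adjusted p = 8.88e-06). Sfrp4, known for its role in phosphate and bone metabolism, was at 0.189 and 0.183 FPKM without treatment and at 2.10 and 2.21 FPKM with it. The difference was 2.98 with a standard error of 0.27 (adjusted p = 7.06e-05), an 11.6-fold change of the means, and the replicates lay close together in both groups.

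Sfrp1, the highest of the family in untreated cells, missed the threshold. It was at 15.7 and 18.2 FPKM in the untreated samples and at 14.0 and 13.1 FPKM with 5-AZA, a difference of -0.32 (95% interval -0.60 to -0.03, adjusted p = 0.104). The ratio of Sfrp2 to Sfrp1 was 0.185 and 0.130 without treatment and 1.44 and 2.25 with it. Sfrp5 was at 0 in 3 samples and at 0.0726 FPKM in 5-AZA replicate 102. Frzb, which encodes the remaining secreted Frizzled-related protein and is not a member by its symbol, measured 7.22 and 8.56 against 4.40 and 6.68 FPKM (-0.53, adjusted p = 0.107).

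Dkk3, a divergent Dickkopf protein for which binding to Lrp co-receptors is in doubt, measured 0.728 and 0.715 FPKM in untreated cells. With 5-AZA it measured 7.10 and 9.24 FPKM, a log2 difference of 3.32 with a standard error of 0.21 (adjusted p = 9.03e-06) and an 11.3-fold change of the means. Dkk2, a ligand of Lrp5 and Lrp6, went from 0.245 and 0.184 FPKM to 4.04 and 2.19 FPKM, a difference of 3.30 with a standard error of 0.33 (adjusted p = 1.47e-04). The treated samples of Dkk2 differed almost 2-fold from each other, yet both were far above the untreated values. Dkk1 and Dkk4 were at 0 in all samples, so Dkk1, a well-known β-catenin target and inhibitor, was not detectable in either group. The calls of Sfrp2, Sfrp4, Dkk2, Dkk3 and Wnt16 held under all 13 alternatives tried, although the alternative that only drops the 2-fold limit could not lose a call.

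The make-up of the families differed between the groups. Summed over the family, the ligands measured 1.69 and 2.02 FPKM in the untreated samples and 9.96 and 13.0 FPKM with 5-AZA. Wnt5b held 62.1% and 58.9% of this without treatment and 57.9% and 60.2% with it, while Wnt16 went from 1.18% and 0.952% to 14.8% and 20.1%. The Dickkopf sum went from 0.972 and 0.898 to 11.1 and 11.4 FPKM, with Dkk3 as the largest part in each sample (63.7% to 80.9%).

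The receptor sum was 109 and 106 FPKM in the untreated samples and 81.6 and 98.7 FPKM with 5-AZA. Fzd2 and Fzd8 together held 60.4% and 63.3% of it without treatment and 44.2% in each treated sample, and Fzd4 went from 6.97% and 7.54% to 18.0% and 16.0%. The Sfrp sum went from 18.7 and 20.8 to 36.2 and 44.9 FPKM. Its main member was Sfrp1 in untreated cells (83.5% and 87.7%) and Sfrp2 with 5-AZA (55.6% and 65.7%). These sums and shares are descriptions with no test.

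**Figure D3:**
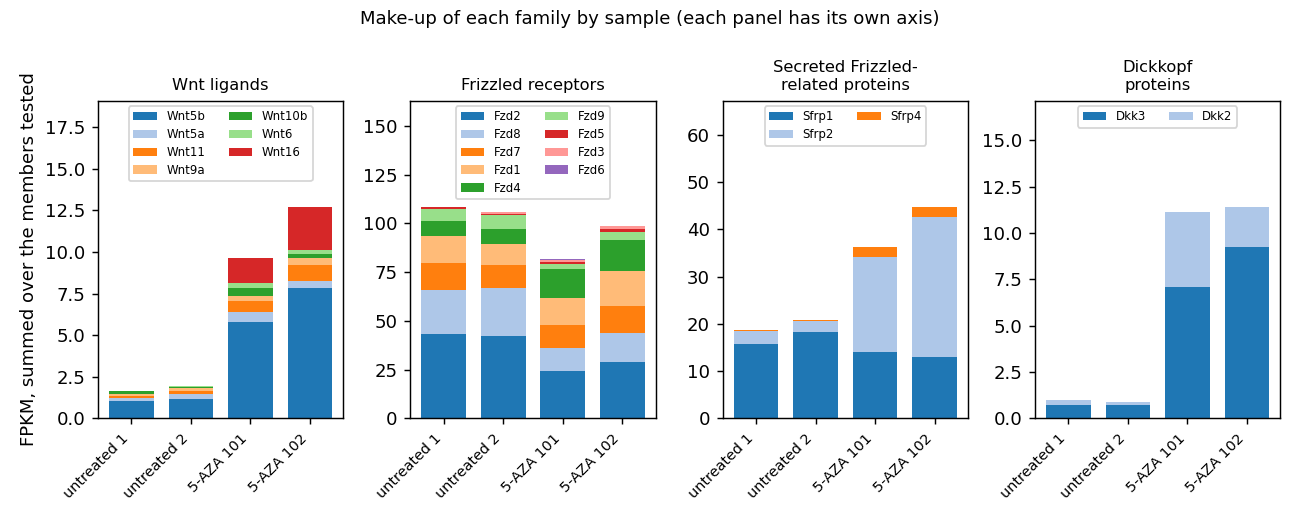
FPKM of the members tested, stacked by gene for each family and sample, with a separate axis for each panel. The ligand and Dickkopf stacks are taller in both 5-AZA samples, Sfrp2 overtakes Sfrp1, and Fzd2 takes a smaller part of the receptor stack (39.9% in each untreated sample and 29.6% and 29.1% with 5-AZA).

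The mRNA table lists levels for single RefSeq transcripts, of which the members had 77, and 20 members had a single transcript. Of these transcripts 29 were tested and 4 were called higher, where 2.1% of all 35557 transcripts tested were called higher and 0.262% lower. They were NM_009144.2 of Sfrp2 (difference 3.38, standard error 0.22, adjusted p = 0.00387), NM_020265.4 of Dkk2 (3.77, 0.57, adjusted p = 0.0373), NM_016687.3, the only transcript of Sfrp4 (2.98, adjusted p = 0.0428), and NM_053116.4 of Wnt16 (3.87, 0.64, adjusted p = 0.0471). None was called lower. These calls were fragile, since none of the transcripts was called when any 1 sample was left out (7 to 10 were higher at an unadjusted p below 0.05) or with no limit on low values (17 unadjusted), and 1 was called with a pseudocount of 0.01 FPKM.

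The level of several genes was split unevenly over their transcripts between replicates of the same group. For Wnt5b, NM_009525.3 held 22.7% and 80.7% of the gene in the untreated samples and 39.7% and 91.1% with 5-AZA, so the replicates differed more than the groups. For Dkk3 the predicted transcript XM_006508014.2 held 80.1% and 8.39% in the untreated samples and 30.6% and 31.3% with 5-AZA. The whole level of Wnt10b came from predicted transcripts, and for Wnt11 the predicted share was 22.3% in untreated replicate 1 and nearly the whole level in untreated replicate 2, and ranged from 53.8% to 97.8% in treated samples. Summing curated transcripts alone, the difference of Wnt11 was 0.77 (adjusted p = 0.606), so its call rests on predicted transcripts. Fzd6 and Wnt6 were below the limit when curated transcripts alone were summed, so their calls depend on predicted transcripts too. The predicted share with 5-AZA was 42.5% and 43.1% for Fzd6 and 65.0% and 68.1% for Wnt6. For Dkk2 the curated transcript held 62.8% and 39.8% without treatment and 92.5% and 92.8% with it.

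**Figure D4:**
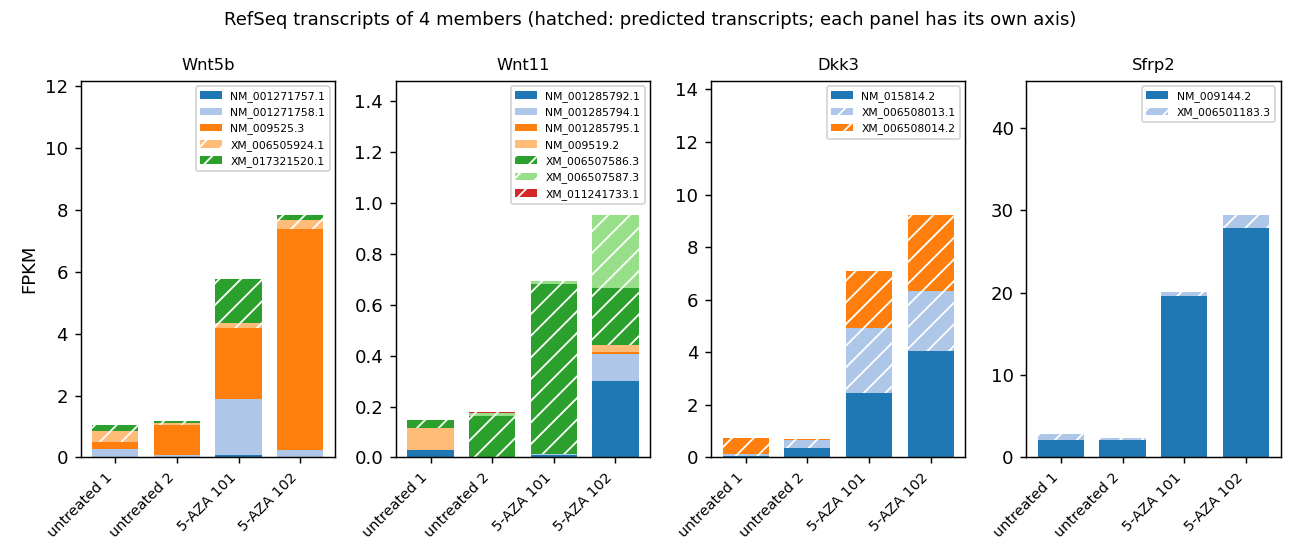
FPKM of each RefSeq transcript of Wnt5b, Wnt11, Dkk3 and Sfrp2 in each sample, stacked to the level of the gene, with predicted transcripts hatched and a separate axis per panel. The gene totals are higher in both 5-AZA samples, while the split of Wnt5b and Dkk3 over transcripts differs between replicates.

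Beyond the members, 105 genes of the Wnt pathway were listed in 8 groups by role, of which 103 were in the table and 88 were tested. Of these 11 rose and 1 fell, near the shares of 13.1% and 1.32% of all genes tested, with a median difference of 0.04. Sostdc1, Camk2b and Nkd2, which rose, reached the limit on low values through the 5-AZA samples alone, so the counts by role below are descriptions. The 8 secretion genes, the 18 transducers of β-catenin and the 16 nuclear factors tested had no call by the rule with the 2-fold limit. At an unadjusted p below 0.05, 2 secretion genes were higher and 2 lower, and 1 transducer and 4 nuclear factors were lower. By adjusted p alone, the nuclear factors Tle1, Tcf7l2 and Ctnnbip1 and the transducer Amer1 were lower. Of the secretion genes Gpc4 was higher and Gpc6 lower. Each of these changed by less than 2-fold and was named after its values were seen. Of all genes tested, 18.6% were higher and 5.93% lower by adjusted p alone. Porcn, which attaches the lipid to Wnt proteins, measured 2.98 and 3.84 against 4.33 and 9.78 FPKM (0.93, adjusted p = 0.0797), and it was called without untreated replicate 2 (1.10, adjusted p = 0.0117). Wls, which carries Wnt proteins to the surface, was at 156 and 161 against 177 and 168 FPKM (0.12, adjusted p = 0.394). β-catenin itself, Ctnnb1, measured 238 and 235 against 225 and 254 FPKM with overlapping groups (0.02, adjusted p = 0.931). Of the TCF/LEF genes, Lef1 (0.391 and 0.332 against 0.158 and 0.367 FPKM, adjusted p = 0.505) and Tcf7 (0.989 and 0.902 against 0.965 and 0.782 FPKM, adjusted p = 0.814) overlapped too. Under quantile normalization, however, Lef1 was called lower (-1.66, adjusted p = 0.0164) and the difference of Tcf7 was -0.98 (adjusted p = 0.0367). The other TCF/LEF genes, named after their values were seen, were below in both treated samples. Tcf7l2, the most abundant of them, measured 12.6 and 11.7 against 6.27 and 7.59 FPKM, less than 2-fold apart (-0.81, adjusted p = 0.00363), and Tcf7l1 measured 2.95 and 2.49 against 1.95 and 2.33 FPKM (-0.34, adjusted p = 0.293).

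Of 9 other receptors and co-receptors 2 rose. Musk, a muscle receptor kinase with a Frizzled-like domain that organises the nerve-muscle synapse, went from 0.144 and 0.155 to 4.77 and 7.11 FPKM (4.57, adjusted p = 7.24e-06). Ptk7, a polarity co-receptor, went from 0.871 and 0.975 to 1.66 and 2.47 FPKM (1.06, adjusted p = 0.0192). Lrp5 measured 4.06 and 3.72 against 4.38 and 7.62 FPKM (0.56, adjusted p = 0.143) and Lrp6 30.0 and 29.2 against 30.8 and 34.5 FPKM (0.14, adjusted p = 0.396). Of 5 genes tested among R-spondins and their receptors, Lgr4, an R-spondin receptor that raises Wnt sensitivity, fell from 52.4 and 60.1 to 14.5 and 17.3 FPKM (-1.82, standard error 0.13, adjusted p = 1.51e-05).

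Of 8 other extracellular inhibitors tested 3 rose. Igfbp4, which binds insulin-like growth factors and also Wnt receptors, went from 3.28 and 2.27 to 182 and 322 FPKM (6.42, adjusted p = 9.09e-07). Sostdc1, which binds Lrp co-receptors, went from 0.0164 and 0 to 0.436 and 0.923 FPKM (2.78, adjusted p = 0.00158). Apcdd1, a membrane inhibitor, went from 0.333 and 0.0978 to 0.807 and 1.40 FPKM (2.00, adjusted p = 0.0107).

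In the polarity and calcium branch 3 of 18 genes tested rose. These were the calcium-dependent kinase genes Camk2a (1.64, adjusted p = 0.00252) and Camk2b (1.29, adjusted p = 0.0406) and the formin Daam2 (1.09, adjusted p = 0.0387), of which Camk2b and Daam2 changed sign under quantile normalization (-0.16 and -0.14). At an unadjusted p below 0.05, 6 genes of this branch were higher and 4 lower. By adjusted p alone, Vangl1 (-0.73, adjusted p = 0.0130) and Plcb1 (-0.61, adjusted p = 0.0281) were lower. Nfatc4 (0.60, adjusted p = 0.0161) and Plcb4 (0.49, adjusted p = 0.0197) were higher. Each of these changed by less than 2-fold and was named after its values were seen. Of 13 feedback and target genes tested 4 rose, Apcdd1 among them. The Dishevelled-binding inhibitors Nkd2 (0.135 and 0.0369 against 0.835 and 0.718 FPKM, 2.29, adjusted p = 0.00245) and Nkd1 (0.175 and 0.259 against 0.923 and 1.32 FPKM, 1.94, adjusted p = 0.00253) were the others with the largest change. The remaining gene was Wisp2, named after its values were seen, at 23.0 and 21.1 against 56.8 and 49.3 FPKM (1.26, adjusted p = 6.79e-05). Axin2, the most used reporter of β-catenin signalling, was below the limit and was not tested. It measured 0.0452 and 0.00605 FPKM in the untreated samples and 0.0806 and 0.0965 FPKM with 5-AZA, higher in both treated samples.

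Several of these pathway calls rest on both samples of a group. Without 5-AZA replicate 102 the adjusted p was 0.147 for Ptk7, 0.264 for Apcdd1, 0.0975 for Nkd1, 0.128 for Nkd2, 0.0953 for Camk2a, 0.0518 for Camk2b and 0.0867 for Daam2. Without 5-AZA replicate 101 it was 0.0814 for Ptk7, 0.174 for Apcdd1, 0.0705 for Nkd1, 0.13 for Nkd2, 0.085 for Camk2a and 0.0781 for Daam2. Camk2b and Daam2 also lost their calls without untreated replicate 1 (0.167 and 0.119) and without untreated replicate 2 (0.226 and 0.201), and Ptk7 changed by less than 2-fold without untreated replicate 1 (0.98). Musk, Igfbp4, Sostdc1, Wisp2 and Lgr4 kept their calls when any 1 sample was left out.

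**Figure D5:**
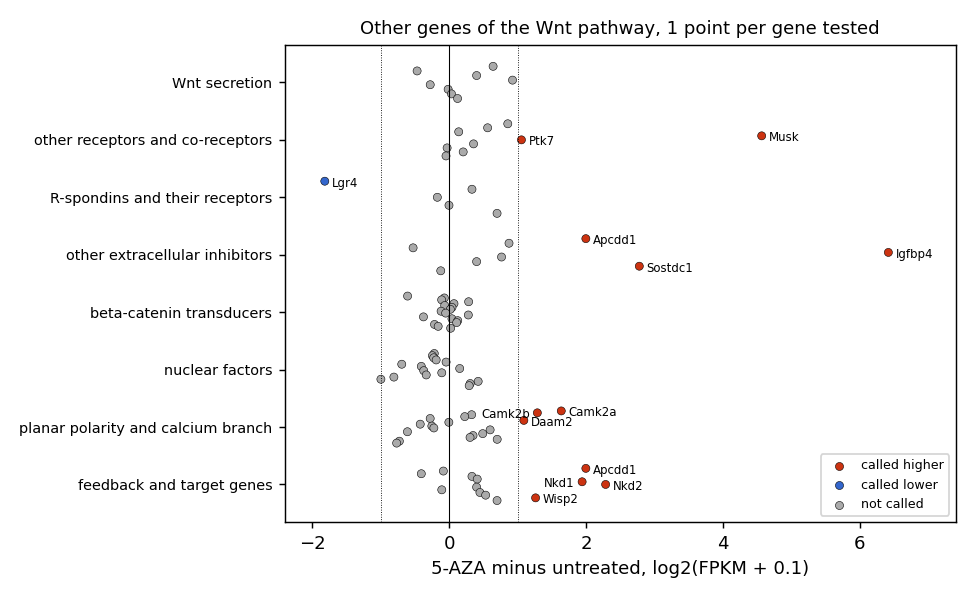
Difference between 5-AZA and untreated samples on the scale log2(FPKM + 0.1) for the other pathway genes tested, 1 point per gene, in rows by role, with genes in several groups shown in each. Red points were called higher, blue lower and grey not called, and dotted lines mark a 2-fold change. The rows of secretion genes, β-catenin transducers and nuclear factors hold grey points alone, Igfbp4 (6.42) and Musk (4.57) lie farthest to the right, and Lgr4 (-1.82) is the blue point.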

How the data were processed

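The authors removed ribosomal RNA, made stranded libraries from total RNA and trimmed the reads with Trimmomatic. The submitters' processing notes also name HISAT2, Bowtie2 2.2.9 and eXpress 1.5.1 and the build mm9, without their roles. The authors deposited FPKM per mRNA transcript and per lncRNA and RPM per circRNA. The number of fragments behind a value is not given, so no counting interval can be given. Summed FPKM of the mRNAs ranged from 328410 to 361664 per sample, and 10298 to 11124 genes reached 1 FPKM.

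Transcripts were summed per gene symbol, a pseudocount of 0.1 FPKM was added, and log2 values of the 2 untreated and 2 5-AZA samples entered the linear model of limma 3.58.1 in R 4.3.3, with moderated variances that follow the mean level (its trend option) and p-values adjusted by Benjamini and Hochberg's method over all genes, or all transcripts, tested. The package the authors name for differential expression models counts, which FPKM values are not. With 2 samples against 2, the smallest two-sided permutation p is 0.333, so none was used. The fit was tested on simulated data in which changes were planted only in genes of higher untreated level. It was therefore no check for members as low in untreated cells as Wnt16 and Fzd6. Genes at 0 in both samples of a group get no fold.

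Members, lists and tests were chosen with earlier results of these data known. All members may be named. Of each pathway list, the text names the 3 called genes with the largest change in each direction, and always Ctnnb1, Lrp5, Lrp6, Axin2, Lef1, Tcf7, Frzb, Porcn and Wls. Marker genes are given as sums with at most 3 genes each. The exceptions are the immune, osteoblast, epithelial, neural and endothelial genes and the cardiac markers at 0 in all samples, which were named after their values were seen.

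The listed circRNA host transcripts lay inside their own RefSeq genes of GRCm38.p6 for 1858 of 2131 host genes (87.2%). Of 12731 RefSeq lncRNA genes of that build, 1586 (12.5%) had a listed lncRNA with the same start and end. GRCm38.p6 was therefore used to find neighbours, and none of the authors' coordinates are printed. None of 4295 circRNAs had a member as host gene. The alternatives were pseudocounts of 0.01 and 1 FPKM, no limit on low values or a mean of at least 1 FPKM, centring on sample medians, quantile normalization, eBayes without trend, curated transcripts alone, no limit on the change, and leaving out each sample in turn.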

Additional observations from a re-analysis of the deposited data

Results flagged for a closer look

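The lncRNA NONMMUT062629.2, a single-exon transcript of 2958 bases listed within 5 kb of Fzd4 on the strand of that gene, was looked at because it belongs to data outside the comparison of mRNAs and was above its level in the untreated samples. It measured 6.33 and 6.25 FPKM in the untreated samples and 10.9 and 13.0 FPKM with 5-AZA, means of 6.29 and 12.0 FPKM (n = 2), with no overlap between the groups. Fzd4 itself was higher in the same samples. Whether reads were shared between them was not tested, and the lncRNA was not tested.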

How the results depend on the processing

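No paired analysis was possible because the labels give the groups no shared replicate numbers. The 4 calls and 0 losses among the inhibitors were the same under all 13 alternatives. Wnt5b was called under 12 of 13, Wnt11 under 8 of 12, Fzd6 under 9 of 11 and Wnt6 under 3 of 11, with adjusted p up to 0.0539, 0.606, 0.235 and 0.797. The numbers of alternatives leave out those in which the gene was below the limit on low values. They count the alternative with no limit on the change, which reuses the main fit and could not lose a call. Of all genes 1724 were called higher and 174 lower, of ligands 4 and 0, of receptors 1 and 0, of other pathway genes 11 and 1, and of member transcripts 4 higher. With a pseudocount of 0.01 FPKM there were 1 receptor lower (Fzd9), 2 pathway genes lower and 1 transcript higher. With 1 FPKM there were 875 and 86 of all genes, 2 ligands, 0 receptors (4 higher at an unadjusted p below 0.05), 3 pathway genes and 2 transcripts higher. With no limit on low values there were 83 genes lower, 6 pathway genes and 0 transcripts higher (17 unadjusted), and Wnt10a was called higher. With a mean of at least 1 FPKM, which removes low genes, there were 845 genes, 2 ligands, 0 receptors (3 unadjusted) and 4 pathway genes higher. Centring gave 1 receptor (Fzd9) and 2 pathway genes lower, and a difference of -0.0878 for Fzd7 and -0.090 for Ctnnb1.

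Centring moved the median difference of all genes from 0.05 to -0.06, and quantile normalization to -0.12. Quantile normalization gave 1041 genes higher and 886 lower against 1724 and 174. It gave 2 ligands and 0 receptors higher (1 unadjusted), 1 receptor lower (Fzd9), and 4 pathway genes higher and 6 lower. Differences there turned to -0.0479 for Fzd7, -0.0862 for Fzd3, -0.034 for Fzd5, -0.22 for Wnt10b, -0.30 for Wnt5a, -0.38 for Wnt9a, -0.16 for Camk2b and -0.14 for Daam2, and Lef1 was called lower (-1.66). Curated transcripts alone gave 2 ligands and 0 receptors (1 unadjusted) higher, and 7 pathway genes higher and 2 lower. Without the limit on the change there were 783 genes lower, 2 receptors higher and 3 lower, and 17 pathway genes higher and 8 lower.

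Leaving out each sample in turn gave 785 to 1616 genes higher and 50 to 181 lower, 1 to 3 ligands higher, 1 to 2 receptors higher and 0 to 1 lower, 4 to 10 pathway genes higher and 1 to 3 lower, and 0 transcripts higher each time (7 to 10 unadjusted). Differences then ranged from -0.12 to 0.16 for Fzd7, from -0.0699 to 0.10 for Ctnnb1, from -0.84 to 0.021 for Lef1 and from -0.24 to 0.0275 for Tcf7. The causes were not tested. The number of samples and the unknown, possibly small, number of fragments behind values under 0.05 FPKM limit every result on low members.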

Other observations

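Within 5 kb of the members the files list 75 lncRNAs, of which 6 reached 0.5 FPKM in some sample. NONMMUT031414.2, which overlaps Fzd8, measured 8.36 and 10.8 FPKM in the untreated samples and 4.53 and 6.37 FPKM with 5-AZA, below them in both. Fzd8 was lower in the same samples, and reads may be shared between them. The other 4, beside or over Fzd5, Sfrp2 and Wnt10b, overlapped between the groups. NONMMUT043631.2, listed on the strand opposite to Sfrp2, reached 0.645 FPKM at most against 20.1 and 29.5 FPKM for Sfrp2 with 5-AZA.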
